A study of Sus scrofa with 2 samples.

Results

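Small RNAs of 21 to 23 nt whose first base was A, C or G, and whose GC content was below 80%, are described here from pig oocytes. They were taken from the deposited tables by length, first base and GC content alone. They comprised 136080 of the 1166705 distinct sequences in the series, with 75049 of them in the Dicer knockdown library and 82097 in the control library. The knockdown oocytes had received siRNA against Dicer at the germinal vesicle stage and had then matured in vitro for 42 h. The other library came from control oocytes at metaphase II, matured in vitro for the same time, and the labels do not say whether these received a control siRNA. The number of oocytes pooled per library and the animals' breed or age are not given in the sources used here. Each group had 1 library, so no test between conditions was possible, and every comparison is between these libraries. Small RNA libraries do not read the Dicer mRNA, so how far Dicer was reduced was not analysed here.

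Dicer cuts hairpins and long double-stranded RNA into miRNAs and siRNAs of about the length studied here. A miRNA recognises its targets mainly through its seed, bases 2 to 8 from the 5′ end, so a form that starts at another base carries another seed. piRNAs, which direct Piwi proteins against transposons in the germ line, commonly start with U, written T in these tables, and reads that start with another base hold fewer of them. Such reads can also be pieces of ribosomal RNA, tRNA or Y RNA, a short non-coding RNA found in complex with Ro. No miRNA, rRNA or genome sequence was used as a reference here. The few RNA names below are given from general knowledge of conserved vertebrate sequences, were not checked against a pig reference, and enter no count.

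The sequences that carry the main results are shown 5′ to 3′, with T for U. The miRNA-like forms are shown first, with the seed in capitals. The full T-start form has the letters known for miR-10b, a miRNA encoded in a Hox gene cluster. The forms below it lack its initial T and are called trimmed for that alone. How they arose was not tested.
T-start form, 22 nt: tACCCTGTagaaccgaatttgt
trimmed form, 21 nt: aCCCTGTAgaaccgaatttgt
trimmed form, 22 nt: aCCCTGTAgaaccgaatttgtg
trimmed form, 23 nt: aCCCTGTAgaaccgaatttgtgt
The next has the letters known for miR-100, and the one after it those known for miR-22.
miR-100 form, 21 nt: aACCCGTAgatccgaacttgt
miR-22 form, 22 nt: aAGCTGCCagttgaagaactgt

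Pieces of longer RNAs follow, with the first base in capitals. The G-start pair has letters known from the 3′ end of 5S rRNA, and the C-start and A-start pair letters known from nearer its 5′ end. They are shown because the 23-nt 3′ form was higher in the knockdown library, while its form less 1 base and both 5′ forms were lower.
5S 3′ form, 23 nt: Ggaataccgggtgctgtaggctt
5S 3′ form less 1 base, 22 nt: Gaataccgggtgctgtaggctt
5S 5′ form, 23 nt: Caccctgaacgcgcccgatctcg
5S 5′ form, upstream start, 23 nt: Accaccctgaacgcgcccgatct
The last pair led the families that held 4 of the 5 largest ratios at 1000 reads or more, and capitals mark the letters that both share. The lower of these has letters known from the 3′ end of Y4 RNA.
unnamed C-start form, 22 nt: CCCCCACaaccacgTTTGACTG
Y4 form, 22 nt: CCCCCACtgctaaaTTTGACTG

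The knockdown library held 532902 reads of these RNAs among 11982925, and the control library 513153 among 11836160. That was 4.45% of knockdown reads (exact binomial 95% interval 4.44 to 4.46%) and 4.34% of control reads (4.32 to 4.35%), a ratio of 1.03 (1.02 to 1.03). All ratios are knockdown over control, each relative to all reads of its library, with exact conditional 95% intervals. Intervals cover counting error only, because each group had 1 library. Copies made by PCR were not told apart by molecular identifiers, so the intervals may be too narrow even for that error. Reads of the same length that started with T were 28.7% of the knockdown library and 30.8% of the control library, a ratio of 0.930 (0.929 to 0.931). Among all reads of 21 to 23 nt, the A-, C- and G-start RNAs below 80% GC therefore made up 13.3% in the knockdown library and 12.3% in the control library, a ratio of 1.08 (1.08 to 1.09).

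The small excess over the control library was not seen without the family of the 5S 3′ form. That family was not the only one with more knockdown reads. C-start forms of the 2 families of the last pair shown had 16185 knockdown and 1534 control reads, and leaving out only these was not tried. The 23-nt 5S 3′ form alone had 69350 knockdown reads and 36703 control reads, 13.01% and 7.15% of all reads described here. When every RNA sharing a run of at least 16 nt with it was left out, 442065 knockdown and 457591 control reads remained, and the ratio was 0.954 (0.9503 to 0.958). Without that family these RNAs were lower in the knockdown library, as the T-start reads were.

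Read numbers were spread very unevenly. The 98 sequences whose reads summed to 1000 or more held 47.3% of these reads in the knockdown library and 43.3% in the control library. At the other end, 74243 of the 136080 sequences (54.6%) were seen as a single read, and these held 6.24% of the knockdown reads and 7.99% of the control reads. Sequences found in both libraries numbered 21066 (15.5%), and they held 83.4% of the knockdown reads and 82.1% of the control reads. Over all sequences of the series, 243576 of 1166705 occurred in both libraries. Among T-start sequences of 21 to 23 nt, 53977 of 221506 did.

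By first base, A was the most frequent, and the 3 bases differed in direction. A-start RNAs had 241433 knockdown reads and 266955 control reads, a ratio of 0.893 (0.888 to 0.898). C-start RNAs had 130510 and 122146 reads in the same order, a ratio of 1.06 (1.05 to 1.06). G-start RNAs had 160959 knockdown and 124052 control reads, a ratio of 1.28 (1.27 to 1.29). A thus started 45.3% of these reads in the knockdown library and 52.0% in the control library. Counted by distinct sequences the libraries were nearly alike, with A starting 46.1% of knockdown sequences and 46.9% of control sequences. Without the 5S 3′ family the G-start ratio was 1.01 (1.0004 to 1.02).

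Most of these reads were 23 nt long, with 309171 in the knockdown library and 294751 in the control library, 58.0% and 57.4% of the total. Reads of 22 nt numbered 143351 and 136542, and reads of 21 nt 80380 and 81860, again knockdown before control. The ratios by length were close together, at 1.04 (1.03 to 1.04) for 23 nt, 1.04 (1.03 to 1.04) for 22 nt and 0.970 (0.960 to 0.979) for 21 nt. Within a length the bases separated more, with 1.40 (1.38 to 1.41) for G-start reads of 23 nt, 1.21 (1.20 to 1.23) for C-start reads of 22 nt and 0.863 (0.856 to 0.869) for A-start reads of 23 nt. Just outside the length limits, the same kind of read had 44916 knockdown and 43721 control reads at 20 nt, and 314762 and 301810 at 24 nt.

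The share of reads not starting with T varied with read length. At any GC content it was 12.3% of knockdown reads and 10.4% of control reads of 22 nt, and 13.2% and 11.9% of those of 23 nt. At 21 nt it was 25.3% and 22.1%, and at 18 nt 55.3% and 51.2%. At 28 nt it was 8.95% in the knockdown library and 8.30% in the control library. At 29 and 31 nt the knockdown share was the lower one, at 21.9% against 22.6% in the control library for 29 nt and 27.4% against 39.2% for 31 nt.

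The libraries differed far more just outside the GC limit than just inside it. Reads just inside it, with 75 to 80% GC, had 2858 knockdown and 2068 control reads, and those just outside, with 80 to 85% GC, 10766 and 882. A single 22-nt sequence of 81.8% GC held 6386 of the knockdown and 27 of the control reads just outside. The step at the limit therefore came largely from 1 sequence. Below the limit the ratio did not follow GC content in 1 direction. It was 0.932 (0.926 to 0.938) for 40 to 50% GC, 1.17 (1.17 to 1.18) for 50 to 60%, the bin of the 5S 3′ form, and 0.876 (0.865 to 0.888) for 60 to 70%.

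At base 10, base 2 and the last base, the base that led in T-start reads was less frequent here. In piRNAs made by the ping-pong cycle, in which Piwi proteins cut complementary transcripts, A is common at base 10. Here A stood at base 10 in 31.1% of knockdown reads (31.0 to 31.3%) and 34.7% of control reads (34.5 to 34.8%), against 53.2% and 53.9% of T-start reads of the same lengths. The trimmed miR-10b forms shown above have A at base 10. They had 16272 knockdown and 17589 control reads at 21 nt, 8184 and 8622 at 22 nt, and 8160 and 9448 at 23 nt. Counted by distinct sequences, A at base 10 made up 28.3% in both libraries, and in T-start sequences 36.7% in the knockdown library and 35.7% in the control library. G led at base 10 among the knockdown reads, at 36.4%, against 30.6% in the control library, and G is the base that the 5S 3′ form has there. Without the 10 most abundant sequences G at base 10 was 30.4% of knockdown reads and 27.8% of control reads. At base 9, where the 5S 3′ form also has G, these reads were the more uneven ones, with G in 48.2% of knockdown reads and 44.25% of control reads, against 29.5% and 32.3% of T-start reads. Without the 10 most abundant sequences G at base 9 was 36.6% and 35.5%, knockdown before control.

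The base after the first was T in 18.1% of knockdown reads and 19.7% of control reads, against 48.7% and 47.4% in T-start reads. By distinct sequences this gap was smaller, with T at base 2 in 25.5% of knockdown and 25.04% of control sequences, against 31.6% and 31.0% of T-start sequences. At the 3′ end T was the last base in 50.6% of knockdown reads and 48.5% of control reads, less than the 61.9% and 58.6% of T-start reads. By distinct sequences the last base was T in 35.0% of knockdown sequences and 34.9% of control sequences, close to the 36.9% and 36.0% of T-start sequences.

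A large part of these RNAs started a few bases inside a more abundant T-start RNA. Such a shifted form was counted when its bases 1 to 18 lay 1 to 3 nt after the start of a T-start sequence of 19 to 32 nt with more reads in the same library. Shifted forms took 25.3% of knockdown reads (25.2 to 25.5%) and 30.8% of control reads (30.6 to 30.9%). They were commonest among A-start reads, at 36.0% in the knockdown library and 38.8% in the control library. Among C-start reads they were 21.1% and 26.9%, and among G-start reads 12.9% and 17.3%, or 22.7% and 24.6% without the 23-nt 5S 3′ form. By distinct sequences A-start had the lowest share, at 21.6% in the knockdown library and 22.5% in the control library, against 26.5% and 27.8% for C-start and 24.1% and 26.0% for G-start. Without the 23-nt 5S 3′ form, shifted forms took 29.1% of all knockdown reads described here and 33.1% of control reads. A shift of 1 base held 56.7% of shifted knockdown reads and 56.4% of shifted control reads.

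Forms that began 1 to 3 nt before a more abundant T-start RNA took 14.2% of knockdown reads and 16.9% of control reads. Reads that differed from a more abundant sequence only by having A, C or G in place of its initial T were rare, at 0.460% and 0.391%. Together, the shifted, extended and exchanged forms held 35.1% of knockdown reads and 42.3% of control reads. Sequences with such a relation in either library had a ratio of 0.872 (0.867 to 0.877), and the remaining sequences 1.15 (1.14 to 1.15). The 23-nt 5S 3′ form was among the remaining ones, and without it their ratio was 1.04 (1.03 to 1.05), while the related forms held 40.3% of knockdown reads and 45.5% of control reads.

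The T-start RNA with most shifted reads was the miR-10b form, at 26.9% of shifted knockdown reads and 25.5% of shifted control reads when parents were chosen over both libraries together. The full T-start form had 323333 knockdown and 318321 control reads. The trimmed 21-nt form had 16272 knockdown and 17589 control reads, a ratio of 0.914 (0.894 to 0.934). For each 100 reads of the full form there were 11.5 reads of its shifted forms in the knockdown library and 12.9 in the control library.

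The balance between T-start and trimmed ends depended on the 3′ end. With a G added at the 3′ end, the T-start form had 20055 knockdown and 19081 control reads and the trimmed 22-nt form 8184 and 8622. With G and T added, as in the trimmed 23-nt form, the order turned, with 8160 knockdown and 9448 control reads for the trimmed form against 2219 and 2148 for the T-start one. Both libraries showed this order.

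In a second group of shifted forms the T-start parent was of 24 nt. It is shown with the run that its trimmed form shares in capitals, and no RNA name is given to it.
T-start parent, 24 nt: tAAACCATTCGTAGACGACCTGCT
The parent had 14184 knockdown and 18240 control reads, and the same run without its T had 6465 and 9043, a ratio of 0.706 (0.684 to 0.729). Further starts 2 and 3 bases inside the parent had like ratios, 0.710 (0.679 to 0.743) and 0.714 (0.685 to 0.745) for their most abundant 23-nt forms. All A-start forms of this family together had 18315 knockdown and 25701 control reads.

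An A-start RNA with the opposite geometry began 3 nt before a T-start one, and the shared run is again in capitals.
extended A-start form, 23 nt: aacTCTGATTCAACCCTGAGCCT
T-start form, 22 nt: TCTGATTCAACCCTGAGCCTgg
T-start form, 24 nt: TCTGATTCAACCCTGAGCCTggca
The A-start form was the second most abundant A-start sequence, with 11522 knockdown and 13255 control reads, a ratio of 0.859 (0.837 to 0.880). Its 22-nt T-start neighbour was higher in the knockdown library, with 50875 knockdown and 40349 control reads, and the 24-nt neighbour lower, with 51896 and 61332 reads.

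Many of these RNAs were also parts of longer reads. Sequences of 24 to 32 nt with more reads in the same library contained 42.6% of knockdown reads (42.5 to 42.8%) and 46.1% of control reads (46.0 to 46.2%). Reads that shared the 5′ end of the longer RNA took 22.1% in the knockdown library and 22.4% in the control library, and those that shared its 3′ end 22.3% and 25.9%. An RNA can lie in several longer ones, so these shares overlap. The most abundant such member was a G-start RNA, shown with its longer form and the shared run in capitals.
G-start member, 23 nt: GAGCAAGAGAGATAGTTGTACTG
longer form, 24 nt: GAGCAAGAGAGATAGTTGTACTGa
The member had 8789 knockdown and 8172 control reads, a ratio of 1.06 (1.03 to 1.09), and the 24-nt form 15248 and 16045. No relation of these kinds was found for 44.3% of knockdown reads and 39.0% of control reads, among them the 23-nt 5S 3′ form. Without it these shares were 36.0% and 34.3%, and those contained in longer reads 49.0% and 49.7%.

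The 5S 3′ family was higher in the knockdown library only through some of its starts. This family, the sequences sharing a run of at least 16 nt with the 23-nt form, held 369 sequences with 90837 knockdown and 55562 control reads. The 23-nt form starting GG had a ratio of 1.87 (1.84 to 1.89), and its 22-nt version without the last T, with 4585 knockdown and 2729 control reads, 1.66 (1.58 to 1.74). The 22-nt form that starts 1 base later was lower in the knockdown library, with 3082 knockdown and 3511 control reads and a ratio of 0.867 (0.826 to 0.910). A-start forms of the family had 6907 and 6801 reads, a ratio of 1.003 (0.970 to 1.04). The longer GG form, with 1 more T at 24 nt, had 42367 knockdown and 20288 control reads.

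The family of the 5S 5′ forms shown above went the other way. The 23-nt C-start form had 1595 knockdown and 2933 control reads, a ratio of 0.537 (0.505 to 0.571). The A-start form that begins 2 bases upstream had 306 knockdown and 790 control reads, 2.61-fold lower in the knockdown library (2.29 to 2.99). Over its 301 forms this family had 7088 knockdown and 13268 control reads, a ratio of 0.528 (0.513 to 0.543). Its T-start reads of 21 to 23 nt, which are not among the RNAs described here, had 7731 knockdown and 15364 control reads, and its reads of 24 to 32 nt 30905 and 47477. All 3 of these sets were lower in the knockdown library. A neighbouring family differed less, led by a form that begins CTACGGCC and ends in the bases that begin the C-start form. It had 1182 knockdown and 1273 control reads, a ratio of 0.917 (0.847 to 0.993). Its reads of 24 to 32 nt were 47714 in the knockdown library and 46492 in the control library.

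To describe single RNAs, sequences whose reads in the 2 libraries summed to 100 or more were counted as higher or lower when the ratio was at least 2 or at most 0.5. Of the 753 that reached 100 reads, which held 62.6% of all reads described here, 70 (9.30%) were higher and 50 (6.64%) lower in the knockdown library. Over all 13658 sequences of the series with at least 100 reads, 5.65% were higher and 5.64% lower. The median log2 ratio was -0.12 here and -0.06 over all sequences. The share counted as higher exceeded this background and the share counted as lower was near it. How often replicate libraries would pass 2-fold is not known from this design. T-start sequences of the same lengths had 3.07% higher and 6.89% lower of 3425.

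By first base, 30 of 234 C-start sequences (12.8%) were higher and 11 lower. Of 367 A-start sequences 29 were higher and 34 lower, and of 152 G-start sequences 11 and 5. The 70 higher sequences fell into 46 families of shared sequence and the 50 lower ones into 31. The family of the unnamed C-start form was the largest single group among the higher ones, with 9 of 9 forms, and the 5S 5′ family among the lower ones, with 10 of 28 forms.

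Log2 ratios of these 753 sequences ran from -1.06 at the lowest 5% to 1.83 at the highest 5%, against -1.05 and 1.06 for all sequences of the series at that depth, so the upper end reached further. With 50 to 60% GC, 30 of 267 sequences were higher and 10 lower. With 60 to 80% GC, 15 of 107 were higher and 24 lower, and the median log2 ratio there was -0.42. The other sequences of the series were not counted by GC content. Whether these counts are particular to the RNAs described here is therefore not known.

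Smaller families also differed as sets of related ends, and an example in each direction is shown with the first base in capitals. No RNA name is given to either.
G-start family, 23 nt: Ggcggagcgctgagaagacggtc
A-start family, 23 nt: Aacgagaactttgaaggccgaag
In the G-start family all 4 forms that reached 100 reads were higher, with 1043 knockdown and 87 control reads between them. With so few control reads, these 4 forms reached 100 reads only through the knockdown library, so their count adds nothing to the ratio. In the A-start family 4 of 13 such forms were lower, with 511 knockdown and 1093 control reads, and over its 93 forms the ratio was 0.563 (0.534 to 0.592).

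At 1000 reads or more, 10 of 98 sequences were higher and 3 lower, beside 4.64% higher and 3.24% lower over all 1853 sequences of the series at that depth. The 5 with the largest ratios all started with C, and 4 of them belonged to the families with the shared CCCCCAC start and TTTGACTG end. The unnamed 22-nt form had 8790 knockdown and 747 control reads, a ratio of 11.6 (10.8 to 12.5). The 21-nt form without its initial C had 1343 knockdown and 10 control reads, a ratio of 133 (71.9 to 277). The 22-nt Y4 form had 1400 and 205 reads, a ratio of 6.75 (5.82 to 7.85), and a form with 1 more C at the start 1322 and 194, a ratio of 6.73 (5.79 to 7.87).

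Among the leading 22-nt form and those with 1 C fewer or 1 C more, the form with 1 C fewer had the largest ratio in both families. In the Y4 family that form had 376 knockdown and 13 control reads, a ratio of 28.6 (16.5 to 54.2). Starts with 2 C fewer were also higher. A 22-nt form of that kind had 322 knockdown and 4 control reads in the unnamed family, a ratio of 79.5 (30.8 to 294). In the Y4 family such a form had 54 knockdown and 0 control reads. In the unnamed family a form with 1 C more had 728 knockdown and 115 control reads, a ratio of 6.25 (5.13 to 7.68). A longer 26-nt form of the unnamed RNA was also higher, with 12617 knockdown and 3442 control reads, by a smaller factor. C-start forms of the 2 families together had 16185 knockdown and 1534 control reads, a ratio of 10.4 (9.89 to 11.0). Without them C-start RNAs had a ratio of 0.936 (0.929 to 0.944). These families were left out for their large ratios, so a lower ratio of the rest followed from that choice.

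The last of the 5 C-start sequences belonged to neither family. Capitals mark the positions a seed would take, and whether it is a miRNA was not tested.
C-start form, 21 nt: cTACATGTggcttagaacatg
It had 951 knockdown and 180 control reads, a ratio of 5.22 (4.45 to 6.15), and all 4 forms of its family that reached 100 reads were higher. All forms of this family described here had 1797 knockdown and 445 control reads. Shorter reads of the family, below 21 nt, were far more, with 22377 knockdown and 6793 control reads, a ratio of 3.25. The most abundant of these begins CATGTGGC, inside the form shown, and had 23374 reads over both libraries.

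The 3 lower sequences were the miR-100 form and 2 A-start pieces from the 5′ part of 5S rRNA. The 21-nt miR-100 form had 232 knockdown and 781 control reads, 3.41-fold lower in the knockdown library (2.94 to 3.96). Its 22-nt form had 197 and 591 reads and its 23-nt form 106 and 497, so all 3 lengths were lower, by 3.04-fold and 4.75-fold for the longer ones. No T-start form of 21 to 23 nt shared a 16-nt run with it in either library. The miR-22 form, which likewise had no T-start relative, was higher, with 2860 knockdown and 1802 control reads, a ratio of 1.57 (1.48 to 1.66), within the 2-fold limit.

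The other abundant C-start sequences differed less. A pair that followed the unnamed form in abundance is shown with the seed in capitals.
form beginning CTGG, 22 nt: cTGGACCTgtcaactacactga
form beginning CGAA, 22 nt: cGAACGAGactctggcatgcta
The form beginning CTGG had 3685 knockdown and 4008 control reads, a ratio of 0.908 (0.868 to 0.9499). The form beginning CGAA had 3031 knockdown and 3786 control reads, a ratio of 0.791 (0.754 to 0.830). It belonged to a family of 204 forms led by an A-start form, with 13609 knockdown and 15451 control reads. Reads of that family at 24 to 32 nt were more, with 21917 knockdown and 18761 control reads. Whether these forms are pieces of a longer RNA was not tested.

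Double-stranded products of Dicer leave 2-nt 3′ overhangs, so a partner was sought for each RNA among reads of the same length, with any first base, on the other strand. A 2-nt overhang pair, perfectly complementary elsewhere, was found for 462 sequences with 2883 knockdown reads and for 394 sequences with 2508 control reads. These were 0.541% of knockdown reads (0.521 to 0.561%) and 0.489% of control reads (0.470 to 0.508%). Pairs with a 3-nt overhang held 0.756% of knockdown reads and 0.486% of control reads, and pairs with a 4-nt overhang 0.499% and 0.432%. The 2-nt overhang was below the 3-nt one in the knockdown library and within counting error of it in the control library. By sequences the 5-nt overhang was the most frequent of the overhangs from 0 to 5 nt, which could be scored at every length. It was found for 558 sequences in the knockdown library and 535 in the control library. A longer overhang left a shorter paired run to match, so it was easier to meet. The overhangs are therefore not compared on equal terms here.

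The most abundant 2-nt overhang pair was of 23 nt, shown with the paired bases in capitals.
A-start strand: ACACAATGGAATACTACTCAGcc
C-start strand: CTGAGTAGTATTCCATTGTGTat
The A-start strand had 68 knockdown and 73 control reads, and the C-start strand 24 knockdown and 48 control reads.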

How the data were processed

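Per the labels' protocols, adapters were ligated to small RNA from total oocyte RNA, and amplified cDNA was sequenced on an Illumina instrument. The authors deposited raw read counts for each distinct sequence with its length, 1 table per library, not normalized. The submitters' processing notes name Bowtie2, and for trimming and genome build the sources used here give nothing. Unequal trimming would move reads between lengths.

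Sequences were selected by length, first base and GC content, and each library was scaled to all its reads. Log2 ratios of single sequences had 0.5 reads added to each count. Families were formed by joining each sequence to the most abundant one sharing a run of at least 16 nt, after values had been seen. No replicate existed, so no p-value was computed. The fold rule and the relations were tested on simulated data. Named sequences were the 4 most abundant per first base, up to 5 with the largest ratio in each direction beyond 2-fold among those of 1000 reads or more, and the most abundant shifted and contained ones. The miR-22 form, the 24-nt parent and further forms of these families, and the strand pair, were chosen after their values were seen. The RNAs and lists were chosen with earlier results of these data known. Planned matches to miRNA and rRNA sequences were not made, for lack of a reference here. Alternatives covered lengths, GC limits, denominators, read minimums and left-out families. Calculations ran in Python 3.11.15 with scipy 1.17.1, pandas 2.3.3 and numpy 2.4.6.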

Additional observations from a re-analysis of the deposited data

Results flagged for a closer look

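Reads of 21 to 23 nt that started with A, C or G and had at least 80% GC lie outside the RNAs described above, and they stood far above the control library, with 27585 knockdown and 1918 control reads, a ratio of 14.2 (13.6 to 14.9). Those starting with C held 24418 of the knockdown and 1121 of the control reads. The 2 most abundant are shown with the first base in capitals.
21 nt: Cgccccgggcgggtcgcgccg
22 nt: Cggcggcggcgactctggacgc
The 21-nt sequence had 7046 knockdown and 83 control reads, a ratio of 83.9 (67.5 to 105), and the 22-nt sequence 6386 and 27, a ratio of 234 (160 to 355).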

How the results depend on the processing

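No paired analysis was possible because each group had 1 library. The families were left out as alternatives chosen after seeing the data, and matches to miRNA could not be varied because none were made. The ratio for all these RNAs, 1.03, kept its direction at 20 to 24 nt and below 70% GC. It was 1.04 for 22 nt only and for sequences with at least 2 reads, 1.07 with no GC limit, 1.08 relative to all reads of 21 to 23 nt and 1.10 relative to those that start with T. It turned round to 0.958 without the 10 most abundant sequences, 0.954 without the most abundant family and 0.977 without the 10 most abundant families.

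The share of the library, knockdown before control, was 4.27% and 4.10% with at least 2 reads, 1.20% and 1.15% for 22 nt only, 7.45% and 7.25% for 20 to 24 nt, 4.68% and 4.35% with no GC limit and 4.39% and 4.28% below 70% GC. It was 3.24% and 3.38% without the 10 most abundant sequences, 3.69% and 3.87% without the most abundant family and 2.59% and 2.66% without the 10 most abundant families. Relative to reads of 21 to 23 nt it was 13.3% and 12.3%.

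Relative to reads of 21 to 23 nt the ratios for A, C and G starts were 0.942, 1.11 and 1.35. Without the 10 most abundant sequences of each they were 0.911, 1.03 and 1.01. Without the most abundant family of each, C turned round to 0.960, G was 1.01 and A 0.892. The counts of higher and lower sequences were 132 and 122 of 1409 at 50 reads, 17 and 12 of 183 at 500 reads, and 118 and 162 of 753 at 1.5-fold. With the median of all sequences set to 0 they were 73 and 39, and scaled to reads of 21 to 23 nt 74 and 35. All sequences of the series were not counted at these settings, so these counts have no background beside them.

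With a longer partner of at least 10 reads, whatever the member's own, 74.4% of knockdown and 73.9% of control reads were contained in a longer read. With a shift of 1 nt only, 15.4% and 18.4% were shifted forms. Without the most abundant sequence, left out after seeing the data, shifted forms held 29.1% of knockdown and 33.1% of control reads and contained ones 49.0% and 49.7%, and sequences with no relation to a T-start one had a ratio of 1.04. Counted once per sequence, A at base 10 was 28.3% in both libraries. Scaled to reads of 21 to 23 nt, none of the 19 named sequences changed direction. The cause was not tested.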

Other observations

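Of the 10 families with most reads, another that was lower in the knockdown library was led by an A-start sequence, shown with its first base in capitals.
23 nt: Actgagccaccagggaattccga
Its 179 forms had 6282 knockdown and 9395 control reads, a ratio of 0.660 (0.640 to 0.682). Its T-start reads of 21 to 23 nt were lower by more, with 4371 knockdown and 11435 control reads.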
